A study of Mus musculus with 10 samples.

Results

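The GIMAP genes encode GTPases of lymphocytes, and 8 of them were read by 11 probe sets on expression arrays of B16 tumors, a transplantable mouse melanoma. The members were all probe sets annotated to exactly 1 of the symbols Gimap1, Gimap3, Gimap4, Gimap5, Gimap6, Gimap7, Gimap8 and Gimap9, which makes 11 of 34945 single-gene probe sets and 8 of 18193 genes. RNA of whole dissociated tumors was hybridised, 1 array per tumor, from 5 tumors of Bach2-deficient genotype and 5 of wild-type (WT) genotype, all on a C57BL/6 background. Bach2 encodes a transcriptional repressor of lymphocytes. The labels leave unstated what was deleted in Bach2, whether host or tumor carried the deficiency, how old the animals were, or whether each tumor came from its own animal, so the spread between tumors may in part be technical.

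GIMAP proteins share a guanine-nucleotide-binding domain and sit largely on internal membranes of lymphocytes, above all of mature T cells. Several are known from mutant rats and mice for keeping resting lymphocytes alive, and loss of Gimap5 in either species depletes T cells from the periphery. Their genes lie together in a cluster on mouse chromosome 6, in the order Gimap8, Gimap9, Gimap4, Gimap6, Gimap7, Gimap1, Gimap5 and Gimap3 in the RefSeq gene table.

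Promoter windows from RefSeq (GRCm38.p6, 250 bases before to 50 after a start site) were found for all 8 genes, 9 windows in all. The 4 shown are those of Gimap7 and Gimap4, which differed most between the genotypes, of Gimap9, which differed least, and of Gimap6, whose product has a known autophagy partner. They are written 5′ to 3′ as the table gives them, with matches to the RUNX core TGTGGT and the ETS core CGGAAG, on either strand, in capitals.
Gimap7, chr6:48718371-48718670, plus strand: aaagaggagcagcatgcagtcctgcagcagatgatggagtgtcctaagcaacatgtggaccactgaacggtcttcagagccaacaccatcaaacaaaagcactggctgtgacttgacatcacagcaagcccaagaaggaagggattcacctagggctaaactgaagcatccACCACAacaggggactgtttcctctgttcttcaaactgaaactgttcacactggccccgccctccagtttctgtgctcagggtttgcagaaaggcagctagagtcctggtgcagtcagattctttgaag
Gimap4, chr6:48684328-48684627, plus strand: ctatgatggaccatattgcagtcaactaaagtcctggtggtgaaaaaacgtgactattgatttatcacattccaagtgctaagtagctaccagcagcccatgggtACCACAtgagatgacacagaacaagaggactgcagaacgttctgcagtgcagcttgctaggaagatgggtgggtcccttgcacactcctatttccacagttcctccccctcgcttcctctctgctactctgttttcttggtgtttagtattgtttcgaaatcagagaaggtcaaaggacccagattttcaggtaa
Gimap9, chr6:48675885-48676184, plus strand: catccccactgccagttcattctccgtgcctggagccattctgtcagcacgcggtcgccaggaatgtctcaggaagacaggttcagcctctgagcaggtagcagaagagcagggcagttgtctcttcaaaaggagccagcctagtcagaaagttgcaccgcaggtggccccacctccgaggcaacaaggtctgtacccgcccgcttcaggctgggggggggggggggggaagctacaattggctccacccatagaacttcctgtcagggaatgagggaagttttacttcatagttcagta
Gimap6, chr6:48708195-48708494, minus strand: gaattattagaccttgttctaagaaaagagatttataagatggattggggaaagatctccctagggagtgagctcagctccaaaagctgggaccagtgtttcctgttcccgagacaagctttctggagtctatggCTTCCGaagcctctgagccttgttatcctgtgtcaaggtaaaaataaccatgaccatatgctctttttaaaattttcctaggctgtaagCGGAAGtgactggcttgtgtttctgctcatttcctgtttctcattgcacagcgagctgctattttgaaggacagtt
The Gimap7 and Gimap4 windows each hold a RUNX match, the Gimap6 window holds ETS matches and the Gimap9 window holds neither motif.

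The RUNX core was present in 3 of the 9 windows, with its first base at -79 from the start site in Gimap7, -145 in Gimap4 and -95 in Gimap1, each time on the opposite strand, while 16.8% of 32851 mouse windows of this length hold it. The ETS core was present in 4 windows of 3 genes (Gimap6, Gimap1 and both overlapping windows of Gimap8), and 16.9% of all windows hold it. The core TGANTCA, recognised by AP-1 and BACH factors, was in 0 of the 9 windows, against 7.81% of all windows. The interferon-response motif (a pair of GAAA blocks) was also in 0 windows (3.44% of all), the STAT-type letters TTCNNNGAA in 4 (8.3% of all) and the TATA box TATAAA in 1 (13.6% of all). No match in these windows overlapped a match to another motif. These letter matches describe the windows and say nothing of factor binding.

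All values below are log2 expression values made with RMA (robust multi-array average). A gene with several probe sets is represented by the one with the highest mean over all arrays. Differences are Bach2-deficient minus WT with the standard error (SE) of a limma fit over all genes, and the words rose and fell mark genes with a Benjamini-Hochberg adjusted p under 0.05 there. Second probe sets have the SE and interval of a limma fit over all single-gene probe sets. Differences relative to Cd3e or other T cell genes have a plain SE pooled over both groups, without limma. The family was proposed with the genotype contrast known, so its own differences are given as a description, without p-values. Levels of different probe sets are not comparable, since probe sets differ in affinity.

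All 8 GIMAP genes were higher in Bach2-deficient tumors, with differences from 1.39 to 3.77 and a median of 2.40, where the median over all 18193 genes was -0.06. All 8 passed the threshold as rises, beside 16.3% of all genes (28.7% in either direction), and for all 8 the groups did not overlap, beside 11.2% of all genes with such a gap upward. Nothing is read from these counts, because the contrast was in view when the family was chosen. A difference at least as large as the smallest of the family was found for 986 genes (5.42%). In whole tumors, more cells of a type and more RNA per cell cannot be told apart.

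**Figure D1:**
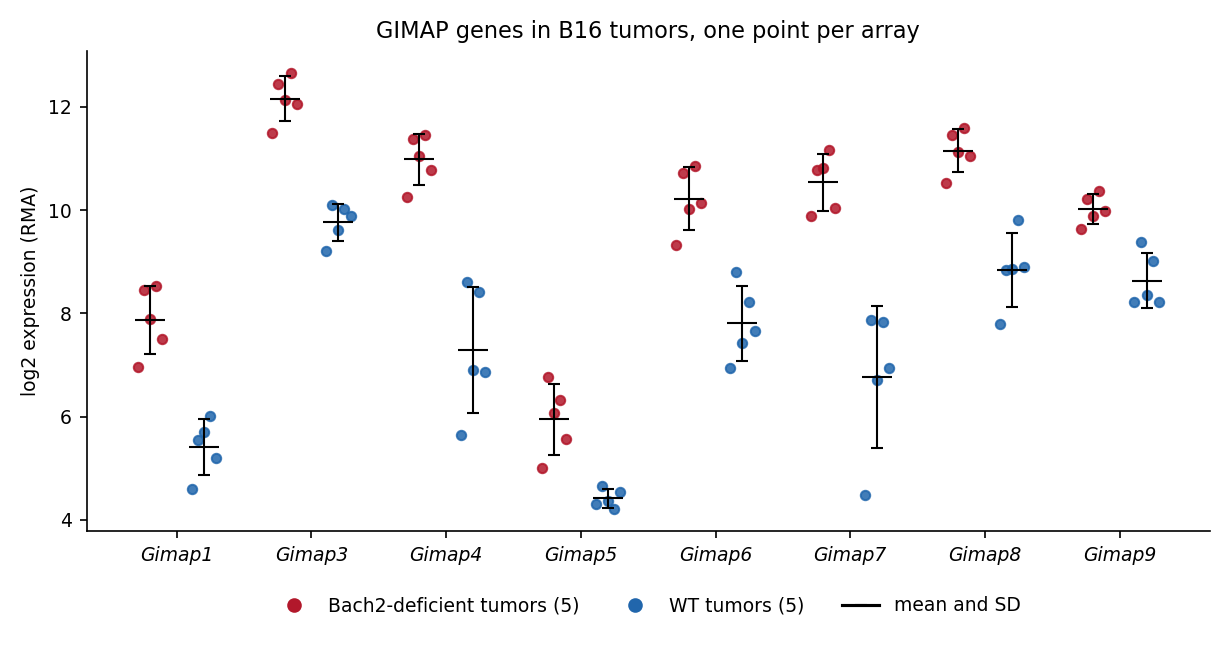
Log2 expression of each GIMAP gene (horizontal axis) on each array (vertical axis, RMA), with Bach2-deficient tumors in red and WT tumors in blue, 5 points each, and bars for the mean and SD. For every gene all red points lie above all blue points, and the blue points of Gimap4 and Gimap7 are the most widely spread.

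Gimap4 and Gimap7 differed most. Gimap4, which in mice is tied to the pace of T cell death, read 10.25, 11.39, 11.05, 11.45 and 10.79 in the Bach2-deficient tumors, against 5.65, 8.60, 6.90, 8.40 and 6.86 in the WT tumors. The groups were separated by a gap of 1.65, and within WT replicates 2 and 4 stood high and replicate 1 low. The difference was 3.70 (SE 0.52), a 13.0-fold higher signal with a 95% interval of 5.83-fold to 29.0-fold. The second Gimap4 probe set gave a difference of 3.83 (SE 0.61).

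Gimap7, whose human counterpart can stimulate the GTPase activity of another family member, read 9.89, 10.79, 10.81, 11.17 and 10.04 in the Bach2-deficient tumors, against 4.48, 7.87, 6.71, 7.84 and 6.93 in the WT tumors. The gap between the groups, 2.02, was the widest of the 11 probe sets, and WT replicate 1 lay far under the other WT values. The difference was 3.77 (SE 0.59), 13.7-fold with an interval of 5.53-fold to 33.7-fold. A second, dim Gimap7 probe set averaged 5.80 ± 0.73 in Bach2-deficient and 3.85 ± 0.41 in WT tumors (SD, n = 5 each). Its WT mean lay under 4.98, the upper limit of the 30% of genes with the lowest means, so the size of its difference, 1.95, is not exact.

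Gimap3, Gimap1, Gimap6 and Gimap8 formed a middle group with differences between 2.31 and 2.46. Gimap3, a membrane-anchored relative of Gimap5 that influences mitochondrial DNA segregation in mouse blood cells, read 11.50, 12.44, 12.13, 12.67 and 12.07 in Bach2-deficient tumors, against 9.22, 10.10, 9.61, 10.02 and 9.88 in WT tumors. Both groups were tight, and the SE of its difference (2.39, 5.26-fold) was the smallest of the family at 0.23. Gimap1, required for survival of mature T and B cells in mice, read 6.96, 8.45, 7.89, 8.54 and 7.50 in Bach2-deficient tumors, against 4.59, 5.55, 5.70, 6.01 and 5.19 in WT tumors. Its groups were 0.94 apart, and the difference was 2.46 (SE 0.34, 5.50-fold).

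Gimap8, which carries several GTPase domains in 1 protein, read 10.52, 11.45, 11.12, 11.60 and 11.06 in Bach2-deficient tumors, against 7.79, 8.85, 8.86, 9.81 and 8.91 in WT tumors. WT replicate 4 was its highest WT value, and the difference was 2.31 (SE 0.33, 4.95-fold). Gimap6, which binds an ATG8-family protein and acts in autophagy, read 9.33, 10.71, 10.03, 10.86 and 10.15 in Bach2-deficient tumors, against 6.93, 8.80, 7.42, 8.21 and 7.67 in WT tumors. The groups stood 0.54 apart, and the difference was 2.41 (SE 0.38, 5.32-fold). The second Gimap6 probe set was the single member of the 11 whose groups overlapped. It averaged 8.17 ± 0.76 in Bach2-deficient and 6.88 ± 0.68 in WT tumors (SD, n = 5 each), a difference of 1.29 (SE 0.41) whose interval, 0.39 to 2.20, lay under the estimate of the first probe set.

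Gimap9 and Gimap5 differed least. Gimap9 read 9.64, 10.22, 9.90, 10.38 and 9.98 in Bach2-deficient tumors, against 8.21, 9.39, 8.35, 9.01 and 8.22 in WT tumors. Its groups were only 0.25 apart, and the difference was 1.39 (SE 0.25, 2.62-fold). Gimap5, which sustains peripheral T cells, read 5.00, 6.78, 6.07, 6.33 and 5.56 in Bach2-deficient tumors, against 4.31, 4.66, 4.37, 4.20 and 4.53 in WT tumors. All 5 WT values lay under the dim level of 4.98, so its difference of 1.53 (SE 0.29) is not exact and no fold is given. The 95% interval of Gimap9, 0.84 to 1.94, did not reach those of Gimap4 (2.54 to 4.86) or Gimap7 (2.47 to 5.07), while it overlapped those of the middle group for Gimap1 (1.70 to 3.22), Gimap3 (1.88 to 2.91), Gimap6 (1.58 to 3.25) and Gimap8 (1.57 to 3.04).

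**Figure D2:**
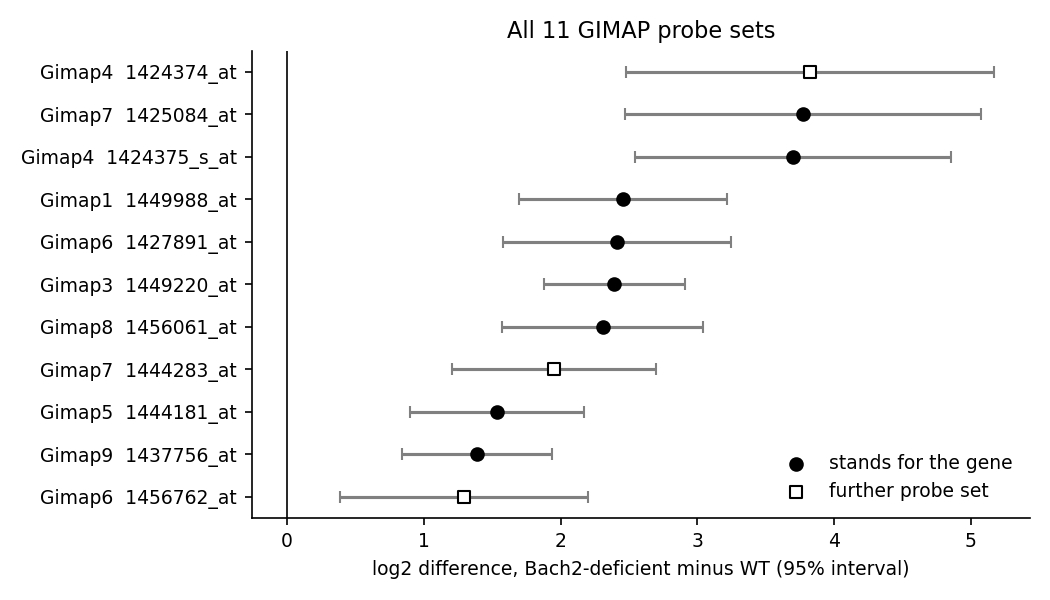
Log2 difference, Bach2-deficient minus WT (horizontal axis), with 95% limma intervals for all 11 GIMAP probe sets (rows), filled where the probe set stands for its gene. Both Gimap4 probe sets and the brighter Gimap7 probe set lie above 3.5, while the second probe sets of Gimap7 (1.95) and Gimap6 (1.29) lie under the first.

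Other features of the same arrays are given beside these values. The representing probe set of Bach2, 1 of 3, differed by -1.07 (SE 0.38, limma adjusted p = 0.0551), and the others are not given here. Poly-A control transcripts, added to RNA before labelling, averaged 9.93 to 10.2 on Bach2-deficient and 11.9 to 12.4 on WT arrays (log2), and the labels give no batch; batch and genotype cannot be told apart here. Xist, expressed in female cells, was low in 4 Bach2-deficient tumors and high in replicate 2 (11.86) and in all WT tumors (11.36 to 12.23). When Xist status (high or low) was a term in the fit, the genotype difference rested on Bach2-deficient replicate 2 alone against the WT tumors. From that 1 tumor the GIMAP median was 2.79, with Gimap7 at 4.02 and Gimap9 at 1.58, and no calls are given. With the mean of 8 melanocyte genes as a covariate, itself 12.09 to 12.82 in Bach2-deficient and 12.57 to 12.79 in WT tumors, the median was 1.92 and 7 passed, all but Gimap9 (1.16), beside 8.53% of all genes. Nothing is read from these counts either.

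The GIMAP cluster was compared with the 6 measured genes on each side of it. Beside the last member, Gimap3, the membrane protein genes Tmem176b and Tmem176a averaged 11.22 ± 0.17 and 11.08 ± 0.14 in Bach2-deficient tumors, against 11.22 ± 0.20 and 11.05 ± 0.28 in WT tumors (SD, n = 5 each). Their differences were 0.00 (95% interval -0.27 to 0.28) and 0.03 (-0.29 to 0.34). On the other side, the transcribed pseudogene AI854703 differed by -0.15 (-0.38 to 0.08) and the zinc finger gene Zfp775 by -0.66 (-1.39 to 0.07).

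Of the 12 neighbours 1 rose and 1 fell, beside 16.3% and 12.4% of all genes, and their median difference was -0.10. The proton pump subunit gene Atp6v0e2 fell by 1.46 on the log2 scale (SE 0.20, limma adjusted p = 0.000792). Lrrc61 rose by 0.42 (SE 0.12, limma adjusted p = 0.0245). That call was lost after repeated quantile normalization and with trended robust moderation, the replicate block or the melanocyte covariate. It was also lost without WT replicate 2 (limma adjusted p = 0.0519) or Bach2-deficient replicate 2 (0.0557), 3 (0.0595) or 4 (0.0654). Rarres2, encoding the chemoattractant chemerin, differed by 0.30, Repin1 by 0.05, Aoc1, a diamine oxidase gene, by -0.38, Doxl1 by -0.20, Gpnmb, a melanosome glycoprotein gene, by -0.05, and Malsu1 by -0.26, and these did not pass. Of the neighbours that did not pass, Zfp775 (-0.95) passed without WT replicate 2, Aoc1 (-0.48) without WT replicate 4 and Malsu1 (-0.44) without Bach2-deficient replicate 1, and Gpnmb passed by its probe set of largest variance (-0.56). Both means of Aoc1 and Doxl1 lay under 4.98.

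**Figure D3:**
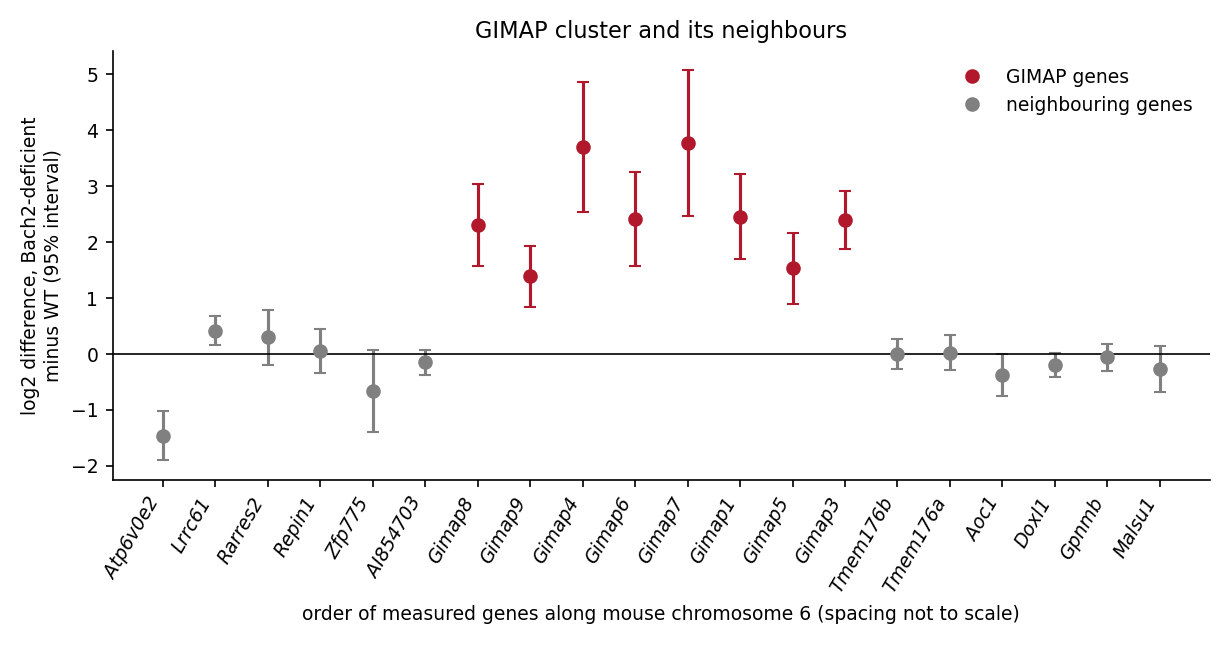
Log2 difference, Bach2-deficient minus WT (vertical axis), with 95% limma intervals for the 8 GIMAP genes in red and 6 measured neighbours on each side in grey, in their order along mouse chromosome 6 (horizontal axis, not to scale). The red points run from 1.39 to 3.77 and the grey points from -1.46 to 0.42.

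Each GIMAP gene was then set against Cd3e, a chain of the T cell receptor complex, on the same array. Cd3e itself read 11.88, 12.64, 12.39, 12.84 and 12.39 in Bach2-deficient tumors, against 9.20, 10.81, 9.60, 11.11 and 10.81 in WT tumors. It rose by 2.12 (SE 0.37, 4.36-fold, limma adjusted p = 0.00231). With the Xist term, where Bach2-deficient replicate 2 alone is set against the WT tumors, its difference was 2.34. The median GIMAP difference exceeded that of Cd3e by 0.28, by 0.14 without WT replicate 5 and by 0.01 with the melanocyte covariate. This measure belongs to the choice of the family and is described without a test, and a difference between the groups here shows unequal change only.

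Gimap4 minus Cd3e read -1.63, -1.26, -1.35, -1.39 and -1.61 in Bach2-deficient tumors, against -3.55, -2.21, -2.70, -2.70 and -3.95 in WT tumors. Gimap7 minus Cd3e read -1.99, -1.86, -1.58, -1.68 and -2.36 in Bach2-deficient tumors, against -4.72, -2.94, -2.89, -3.26 and -3.88 in WT tumors. For these 2 genes the groups did not overlap, beside 0.456% of all genes with such a gap upward relative to Cd3e, from which nothing is read, and the differences were 1.58 (SE 0.33) and 1.65 (SE 0.37). Gimap9 went the other way, with -2.24, -2.42, -2.50, -2.47 and -2.41 in Bach2-deficient tumors, against -0.99, -1.42, -1.25, -2.10 and -2.60 in WT tumors, a difference of -0.74 (SE 0.30). Its groups overlapped through WT replicate 5.

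The remaining genes stood nearer to Cd3e. Relative to it Gimap1 differed by 0.33 (SE 0.33), Gimap6 by 0.29 (SE 0.25), Gimap3 by 0.27 (SE 0.24) and Gimap8 by 0.18 (SE 0.22), with overlapping groups. Gimap5 differed by -0.59 (SE 0.41), although its dim WT values make that size inexact. In the Bach2-deficient tumors the ratio to Cd3e hardly varied for some members. The SD of the log2 ratio was 0.067 for Gimap8, 0.081 for Gimap3 and 0.10 for Gimap9, against 0.50, 0.52 and 0.66 in the WT tumors.

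**Figure D4:**
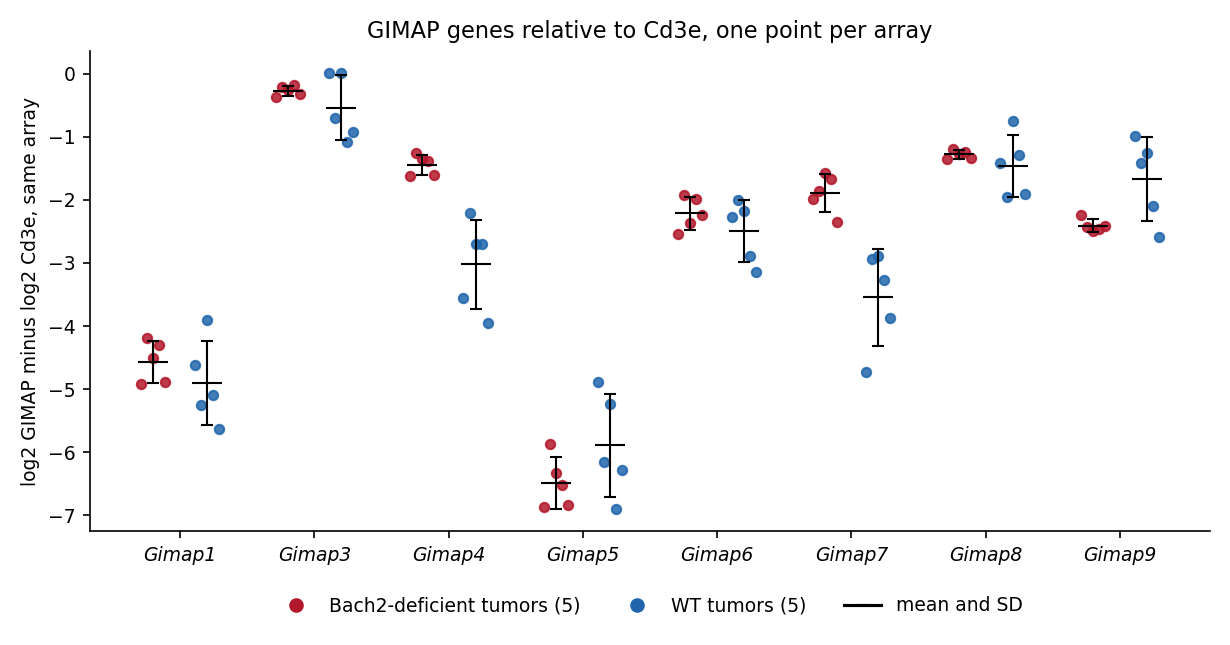
Log2 of each GIMAP gene minus log2 of Cd3e on the same array (vertical axis) for the 8 genes (horizontal axis), Bach2-deficient tumors in red and WT tumors in blue, 5 points each, with bars for the mean and SD. Gimap4 and Gimap7 show separate groups with red above blue, Gimap9 has a lower red mean, and the red points of Gimap3, Gimap8 and Gimap9 lie close together.

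The sign of the comparison depended on the T cell gene used. All 18 measured genes of a T cell list rose, beside 16.3% of all genes, with a median of 2.73, among them Lat, an adaptor of T cell receptor signalling (2.75, limma adjusted p = 0.000188), and the GIMAP median lay above 6 of them and below 12. It stood 1.30 above Ubash3a, a T cell phosphatase-family gene that rose by 1.10, and 0.71 above Cd4. After repeated quantile normalization or with the melanocyte covariate the Ubash3a call was lost. Without WT replicate 1 or 2 or Bach2-deficient replicate 2, 3 or 4, Ubash3a did not pass either (limma adjusted p 0.0550 to 0.0859). Its difference was larger by the mean of its probe sets (1.59) and by the probe set of largest variance (2.09), nearer to the GIMAP median. The GIMAP median differed by -2.31 from Cd8b1 and by -1.82 from Cd8a, which together form CD8, and by -1.98 from Themis, a signalling protein of thymocytes. The WT mean of Cd8b1 (4.77) lay under the dim level, so its value is not exact. Against the mean of the 17 other T cell genes, 6 GIMAP genes had a negative difference, 5 of them without overlap, beside 95.7% of all genes without overlap in that direction, from -1.55 (Gimap9, SE 0.21) to -0.48 (Gimap1, SE 0.18). Gimap4 and Gimap7 kept positive differences there of 0.76 (SE 0.37) and 0.83 (SE 0.44), with overlapping groups.

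Beside the genotype difference, the GIMAP genes varied together over the 10 arrays. With the group means removed, the 28 pairs of genes had a median Pearson r of 0.79 over the 10 arrays, from 0.38 to 0.94. Each r pools both groups, and none was made for a single group. The closest pairs were Gimap3 with Gimap6 (0.94), Gimap4 with Gimap7 (0.94) and Gimap6 with Gimap9 (0.93). Gimap5, whose WT values were dim, stood furthest apart, with r from 0.38 to 0.73 in its 7 pairs. The points share arrays, tissue composition and normalization, 8 degrees of freedom remained, and no p is given. The pattern was also visible in single tumors. Bach2-deficient replicate 1 was lowest in its group for 10 of the 11 probe sets and replicate 4 highest for 9, while WT replicate 1 was lowest for 8 and WT replicate 2 highest for 8.

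**Figure D5:**
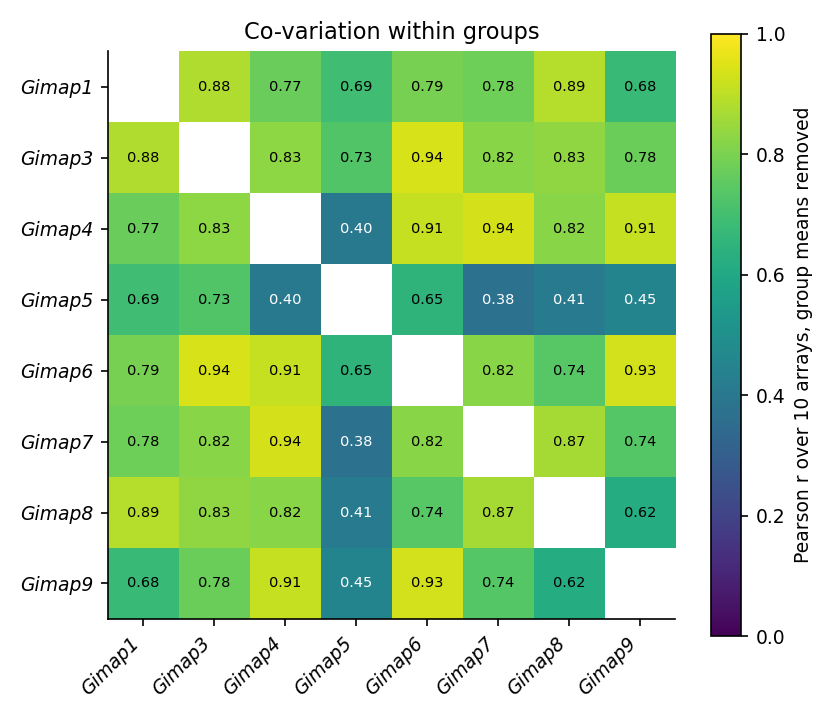
Pearson r between each pair of GIMAP genes (both axes) over 10 arrays after each group's mean was removed, coloured from 0 to 1. All pairs are positive, and the row of Gimap5 is the lowest.

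Among 12727 other genes above the dim level, the genes whose group-centred values were most like those of the family were Cd2, an adhesion receptor of T and NK cells (mean r 0.86 with the 8 genes), and the chemokine receptor gene Cxcr3 (0.85). They were followed by Zfp217, Ptprcap (a CD45-associated protein), Otulinl, Trbv1 (a T cell receptor β variable segment), Brat1 and Traf5, a TNF receptor adaptor, with mean r of 0.846 to 0.848. Cd3e had 0.75, and 196 genes had as much or more. The median over all genes searched was -0.03. By list it was 0.74 for NK cell, 0.70 for T cell, 0.67 for quiescence, 0.66 for effector and 0.64 for BCL2-family genes. Lower medians were those of macrophage (0.59), B cell (0.51), endothelial (0.27), red cell (0.23), ATG8-family (-0.03), GSK3 (-0.08) and melanocyte (-0.50) genes. The neighbours of the cluster had a median of -0.47.

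Lymphocytes other than T cells, and endothelium, can also express GIMAP genes, so their markers are given. All 6 measured NK cell genes rose, beside 16.3% of all genes, with a median of 3.50. Klrk1, an activating receptor, rose by 3.73 (limma adjusted p = 0.000108), Klra8 by 3.51 and the kinase gene Txk by 2.94, the last from a WT mean of 4.02 that lies under the dim level. The mean of the NK list was 8.53 to 9.89 in Bach2-deficient and 5.21 to 6.75 in WT tumors. Of 7 B cell genes 0 passed in the limma fit, beside 28.7% of all genes in either direction. At an unadjusted p under 0.05 the count was also 0, and 1 passed without WT replicate 5. The mean of the B cell list was 4.73 to 7.36 in Bach2-deficient and 5.41 to 5.96 in WT tumors. Of its 7 genes 2 were dim in both groups, among them Pax5 (3.99 and 4.08).

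Of 10 endothelial genes 5 fell and 1 rose, beside 12.4% and 16.3% of all genes. Egfl7 fell by 1.18 (limma adjusted p = 0.00131), the vesicle diaphragm gene Plvap by 1.11 and the tight junction gene Cldn5 by 1.46 (not exact, since its Bach2-deficient mean of 4.92 is dim), while Pecam1, which leukocytes also express, rose by 2.00 (limma adjusted p = 0.00277). Of the 5 genes that fell, Cdh5 was dim in both groups (means 3.93 in Bach2-deficient and 4.59 in WT tumors). Esam, which also fell, had a dim Bach2-deficient mean of 4.87, so the size of its fall is not exact. The endothelial list mean was 4.86 to 5.23 in Bach2-deficient and 5.34 to 5.59 in WT tumors. It includes 3 genes that were dim in both groups. Of 8 macrophage genes 6 rose, beside 16.3% of all genes (median 1.42), among them Csf1r (1.93), Fcgr1 (2.07) and Adgre1 (2.10). With the melanocyte covariate 3 of the macrophage genes passed, beside 8.53% of all genes in either direction. Of 8 melanocyte genes 2 fell, Dct (-0.33) and Tyr (-0.68), beside 12.4% of all genes. The melanocyte covariate is the mean of these same 8 genes, so their count with it cannot be read and is not given. Without Bach2-deficient replicate 2 or 4 the count of melanocyte genes called was 0. It was 1 without Bach2-deficient replicate 3 or WT replicate 1, 2, 4 or 5, and 5 without Bach2-deficient replicate 1. Of 4 red cell genes 3 fell, beside 12.4% of all genes, namely Slc4a1 (-5.13), Alas2 (-4.16) and Epb42 (-3.47, not exact, since its Bach2-deficient mean of 3.39 is dim). The red cell gene that did not pass was dim in both groups. With the melanocyte covariate 1 of the 4 passed, beside 8.53% of all genes. The part of these cells in the GIMAP differences was not tested.

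Genes of programmes tied to GIMAP function were counted from lists chosen by role. Of 12 measured genes of lymphocyte quiescence and survival, 10 rose and 1 fell, beside 16.3% and 12.4% of all genes, with a median difference of 1.26. Slfn2, needed for quiescence of T cells, rose by 1.80 (SE 0.25, limma adjusted p = 0.000803), the chromatin organiser Satb1 by 2.91 (SE 0.40) and the antiproliferative gene Btg2 by 2.31 (SE 0.38). The survival receptor gene Il7r rose by 1.61 and the transcription factor genes Klf2 and Foxo1 by 1.64 and 0.89. Tsc1, a brake on mTOR, fell by 0.71 (limma adjusted p = 0.00100), but its probe set of largest variance read 0.11. Tob1 did not pass (-0.38). With the melanocyte covariate 6 of these genes passed, beside 8.53% of all genes in either direction. All 14 effector genes of T and NK cells rose, beside 16.3% of all genes, with a median of 3.79, among them Fasl (4.75), Gzmb (5.25) and Gzmk (4.37). The smallest effector difference was 0.37. With the melanocyte covariate 10 of the 14 passed, beside 8.53% of all genes, and without Bach2-deficient replicate 2 the count was 11. The WT means of Fasl (4.52) and of some further effector genes lay under the dim level.

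GIMAP proteins have been tied to BCL2-family proteins in lymphocyte survival. Of 9 measured BCL2-family genes, 6 rose and 0 fell in the limma fit (1 lower at an unadjusted p under 0.05), beside 16.3% and 12.4% of all genes, with a median difference of 0.74. Bid, a proapoptotic linker, rose by 0.93 (SE 0.10, limma adjusted p = 0.000301), the prosurvival gene Mcl1 by 0.74 and the proapoptotic gene Bcl2l11 by 1.64, and Bcl2 by 1.02. The Bcl2 call was lost when all its probe sets were averaged (0.44, adjusted p = 0.0619) and with its probe set of largest variance (0.15, adjusted p = 0.791). Bcl2l1 (0.45), Bad (-0.35) and Bbc3 (-0.10) did not pass. Prosurvival and proapoptotic genes were both among those that rose.

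The ATG8-family genes, to which the binding partner of Gimap6 belongs, gave 0 calls among 5 members in the limma fit, beside 28.7% of all genes called in either direction, against 2 lower at an unadjusted p under 0.05, and their median was -0.16. Under repeated quantile normalization, the replicate block, array weights, or without WT replicate 5 or Bach2-deficient replicate 1, 1 or 2 of them passed. Gabarapl2, the partner named for Gimap6, averaged 9.94 ± 0.16 in Bach2-deficient and 10.45 ± 0.40 in WT tumors (SD, n = 5 each), a difference of -0.51 (limma adjusted p = 0.0629). Gabarap differed by 0.20, Gabarapl1 by -0.10, Map1lc3a by -0.52 and Map1lc3b by -0.16. Of 5 genes around GSK3β, a kinase tied to Gimap5 in mouse T cells, Gsk3b itself differed by 0.08, Gsk3a by 0.21 and Ctnnb1, β-catenin, by -0.10, and these did not pass. Axin1 rose by 0.73 (limma adjusted p = 0.0437) and Apc fell by 0.48 (limma adjusted p = 0.0228), beside 16.3% and 12.4% of all genes. Both calls were lost with the melanocyte covariate. The Axin1 call was also lost after repeated quantile normalization, with each array centred on its median and with trended robust moderation. The Apc call was also lost by the mean of its probe sets, by its probe set of largest variance and with the replicate block. In fits without 1 array the Axin1 call was lost in 7 of 10. It held only without WT replicate 4 or 5 or Bach2-deficient replicate 1. The Apc call was lost in 3 of 10 (without Bach2-deficient replicate 3, 4 or 5).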

How the data were processed

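RNA of 10 B16 tumors was measured on 1-colour Affymetrix Mouse430_2 arrays. The deposited values are log2 expression values, and per the submitters' processing notes the authors used RMA and Partek (versions not given in the sources used here). Values from 1.99 to 14.4 fit a log2 scale. They were used as deposited, and quantile normalization by RMA assumes like distributions of signal in all tumors. No detection calls were used, and precision is limited by the number of arrays.

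Of 45101 probe sets, 64 controls, 932 with several symbols and 9160 without a symbol in the platform annotation were left out. Each of the 18193 genes was represented by its brightest probe set. Genotype was fitted with limma 3.58.1 in R 4.3.3 over all 10 arrays (lmFit and eBayes, Benjamini-Hochberg over all genes), a fit checked on simulated data. The members, lists, named-gene rule and alternatives were chosen with earlier results of these data known. Named were all members, their neighbours, the genes most like them and, per list, the 3 called genes with the smallest p in each direction. Values are also given for further members of the T cell, quiescence, BCL2-family, B cell, endothelial and 5-gene lists. Listed genes without a single-gene probe set are not analysed here. No array pair was alike enough to be a duplicate (median absolute difference at least 0.133). Gene order came from the start positions in the RefSeq gene table (GRCm38.p6), and distances between genes were not used. Protein sequences are not shown.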

Additional observations from a re-analysis of the deposited data

Results flagged for a closer look

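Of 64 groups of 5 arrays examined, 1 held a value far from the others. Among the neighbours of the cluster, Malsu1, a mitochondrial ribosome assembly gene, read 10.73 in 1 Bach2-deficient tumor, where the next highest read 9.97. Chance alone marks about 1 in 20 such groups. No GIMAP probe set, and no GIMAP gene relative to Cd3e, held such a value.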

How the results depend on the processing

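All 8 GIMAP genes passed under 8 of the 10 processing alternatives and in each of the 10 fits without 1 array, and 7 passed with the melanocyte covariate. With the Xist term the genotype difference rests on 1 Bach2-deficient tumor, so its calls are not given. Both terms were known from earlier results of these data. The median GIMAP difference ran from 1.92 (melanocyte covariate) to 2.79 (Xist term), and from 2.22 to 2.60 without 1 array. The median minus Cd3e was 0.01 with the melanocyte covariate and otherwise 0.14 to 0.45, and the median group-centred r 0.75 to 0.86. Over all genes, 1417 passed with the Xist term and 1551 with the melanocyte covariate, against 5226 without them, and 3658 to 5925 without 1 array. Of the 12 neighbours, 1 passed after repeated quantile normalization, with trended robust moderation, with the replicate block and with the melanocyte covariate. Without 1 array 1 to 3 of them passed. Residual correlations of same-numbered tumors were 0.0062 to 0.32. Tumors of unlike number were not compared, so whether the replicate numbers pair the tumors is not known. With the replicate block all 8 GIMAP genes passed and 4952 genes in all. Tsc1 turned to 0.11 by its probe set of largest variance. The causes of these changes were not tested. With no detection calls, sizes of changes with 1 group mean under 4.98 are not exact. This applies to Gimap5, the second Gimap7 probe set, Cd8b1, Txk, Fasl, Epb42, Cldn5 and Esam.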
